A study of Rattus norvegicus with 20 samples.

Results

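The levels of 10 macrophage genes were followed through the right ventricle of the rat under pressure load. Here 5 were grouped as lipid-associated (Gpnmb, Trem2, Lgals3, Cd68 and Lyz2) and 5 as resident (Cd163, Mrc1, F13a1, Csf1r and Adgre1). They were found by gene symbol, 1 transcript ID for each gene (the one with the highest mean where there were several), which made 10 of 18282 IDs. The libraries came from right ventricles of young Wistar rats: 5 taken 4 weeks after pulmonary banding (animals aged 7 weeks), 4 taken 8 weeks after banding (aged 11 weeks), 5 taken 4 weeks after a sham operation (7 weeks) and 5 taken 8 weeks after sham (11 weeks). Pulmonary banding narrows the outflow of the right ventricle, so that the chamber works against a raised pressure. The labels name no sex and no genotype, and every group received surgery. A further 8-week banding sample in the labels was not analysed here. The labels do not say outright that each library is a separate animal, so p-values measure the spread between these libraries, which may in part be technical.

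A healthy heart holds macrophages that settle there early in life and renew themselves with little input from the blood. They carry scavenger and mannose receptors (CD163, MRC1), and they need signals through the CSF1 receptor to live. Lipid-associated macrophages were described in fat tissue, atherosclerotic plaques and injured organs: they carry the lipid receptor TREM2, which signals through the adaptor TYROBP and the kinase SYK, and they are rich in lysosomal and lipid-handling proteins such as GPNMB, galectin-3 and CD68. Blood monocytes that enter an injured heart can take up either state, and several of these markers, Lgals3 and Lyz2 among them, are also made by other myeloid cells.

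All 5 lipid-associated genes rose after banding, at 4 weeks and at 8 weeks, led by Gpnmb at 3.82 times and 5.32 times its sham mean. Of the resident genes, 2 of 5 rose at 4 weeks (Mrc1 and Adgre1) and 3 of 5 at 8 weeks (Csf1r as well), none by more than 0.80 on the log2 scale. Cd163 and F13a1 passed the test at neither time. None of the 10 fell. All 10 genes were measured above the filter on low values (at least 10 normalized counts in at least 4 libraries), but Trem2 reached 10 in 1 of 10 sham libraries and so passed through the banded groups. A level here is a read count scaled to library depth and not to gene length, so levels are compared between libraries and not between genes. A gene was called at an adjusted p under 0.05 in limma's moderated test on log2(normalized count + 1), adjusted by Benjamini-Hochberg over all 10926 IDs tested. At 4 weeks 9.27% of all IDs tested were called higher and 9.82% lower, and at 8 weeks 16.7% were called higher and 16.6% lower; the median change of all IDs was 0.00 and 0.01.

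Gpnmb is shown first by the stretch of DNA before its start site, since it gave the largest change of the 10 at both times, together with those of Lyz2, which also held no overlap between banding and sham at either time, and of Cd163 and F13a1, the pair that were not called. Each is the 250 bases before the RefSeq transcription start in the rat assembly GRCr8, read 5′ to 3′ along the gene's strand; these coordinates are not those of the rn6 build that the submitters' notes name. The regions are chr4:79340878-79341127 (plus strand) for Gpnmb, chr7:54798012-54798261 (minus strand) for Lyz2, chr4:158770524-158770773 (plus strand) for Cd163 and chr17:28020947-28021196 (plus strand) for F13a1. Capitals mark TCACATGA in Gpnmb and GGAAGT, or ACTTCC where it lies on the other strand, in Lyz2 and F13a1.
Gpnmb: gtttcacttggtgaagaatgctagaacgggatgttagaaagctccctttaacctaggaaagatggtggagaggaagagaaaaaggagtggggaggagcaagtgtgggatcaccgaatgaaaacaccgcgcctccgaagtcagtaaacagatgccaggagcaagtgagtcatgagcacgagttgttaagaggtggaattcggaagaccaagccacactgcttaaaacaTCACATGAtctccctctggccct
Lyz2: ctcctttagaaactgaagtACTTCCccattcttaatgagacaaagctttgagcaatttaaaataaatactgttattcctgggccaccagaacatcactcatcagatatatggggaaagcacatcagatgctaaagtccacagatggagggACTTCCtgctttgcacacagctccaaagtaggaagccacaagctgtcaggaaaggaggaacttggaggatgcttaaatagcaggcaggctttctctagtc
Cd163: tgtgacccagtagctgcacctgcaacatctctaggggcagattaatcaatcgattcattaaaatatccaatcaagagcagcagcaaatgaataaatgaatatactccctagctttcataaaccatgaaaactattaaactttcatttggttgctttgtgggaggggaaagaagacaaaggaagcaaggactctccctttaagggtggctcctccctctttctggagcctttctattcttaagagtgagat
F13a1: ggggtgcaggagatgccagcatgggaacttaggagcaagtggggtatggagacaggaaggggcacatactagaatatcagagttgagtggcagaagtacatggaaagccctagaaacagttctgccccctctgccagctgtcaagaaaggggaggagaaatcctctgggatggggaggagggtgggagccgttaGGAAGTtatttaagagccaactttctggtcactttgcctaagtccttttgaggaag

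Promoters of 9 of the 10 genes were in the RefSeq table; Lgals3 is named only. Each motif was searched on both strands over the same window of all 33469 promoters. GGAAGT, the core letters read by PU.1 and other ETS factors, stood in 4 of the 9 (Cd68, Lyz2, Mrc1 and F13a1) and in 19.2% of all promoters, with Lyz2 holding it at 2 places. The longer GAGGAAGT, which contains GGAAGT, stood in none of the 9 and in 2.04% of all. The E-box CACGTG, which MITF and its relatives TFEB and TFE3 can read, stood in none of the 9 and in 5.59% of all promoters, and the full CLEAR motif of lysosomal genes, which contains it, in none and in 0.203%. TCACATGA, a form of the M-box that MITF can read, begins 23 bases before the Gpnmb start site and stood in 0.977% of all promoters; this motif was looked for after the Gpnmb sequence had been read. A match is a run of letters, not a measured binding site, and these files hold no binding data.

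Gpnmb encodes a lysosome-associated glycoprotein of macrophages, osteoclasts and melanocytes. It had 318, 298, 341, 325 and 313 normalized counts in the 4-week banding libraries, against 97.4, 60.0, 109, 65.0 and 87.0 in the 4-week sham libraries. At 8 weeks it had 360.5, 355, 396 and 411 with banding, against 76.5, 87.7, 55.6, 68.8 and 69.3 with sham. The groups did not overlap at either time, and the banded libraries lay close together, with an SD of 16.1 around a mean of 319 at 4 weeks and of 27.2 around 381 at 8 weeks. Gpnmb rose by 1.95 ± 0.14 on the log2 scale (SE; limma adjusted p = 1.77e-09) at 4 weeks and 2.41 ± 0.15 (adjusted p = 9.59e-11) at 8 weeks. Every 8-week banding library was also above every 4-week banding library, but that difference of 0.25 did not pass the test (adjusted p = 0.465), and neither did the rise in the banding effect of 0.45 (95% interval 0.04 to 0.87, adjusted p = 0.385).

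Trem2, the lipid receptor that names these cells, was counted by the fewest reads of the 10. It had 28.0, 28.6, 44.3, 17.6 and 33.7 normalized counts at 4 weeks after banding, against 9.83, 6.49, 8.59, 6.69 and 8.81 after sham. The 8-week values were 26.0, 18.6, 27.4 and 36.96 after banding, against 5.73, 12.0, 6.30, 2.37 and 9.45 after sham. No banded library fell into the sham range, at either time, although these values rest on 13 to 48 reads per banded library and 3 to 13 per sham library. Trem2 rose by 1.75 ± 0.32 on the log2 scale (limma adjusted p = 0.000451) at 4 weeks and 1.89 ± 0.34 (adjusted p = 0.000179) at 8 weeks. Its banded means were 27.3 ± 7.53 at 8 weeks (SD, n = 4) and 30.4 ± 9.70 at 4 weeks (SD, n = 5).

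**Figure D1:**
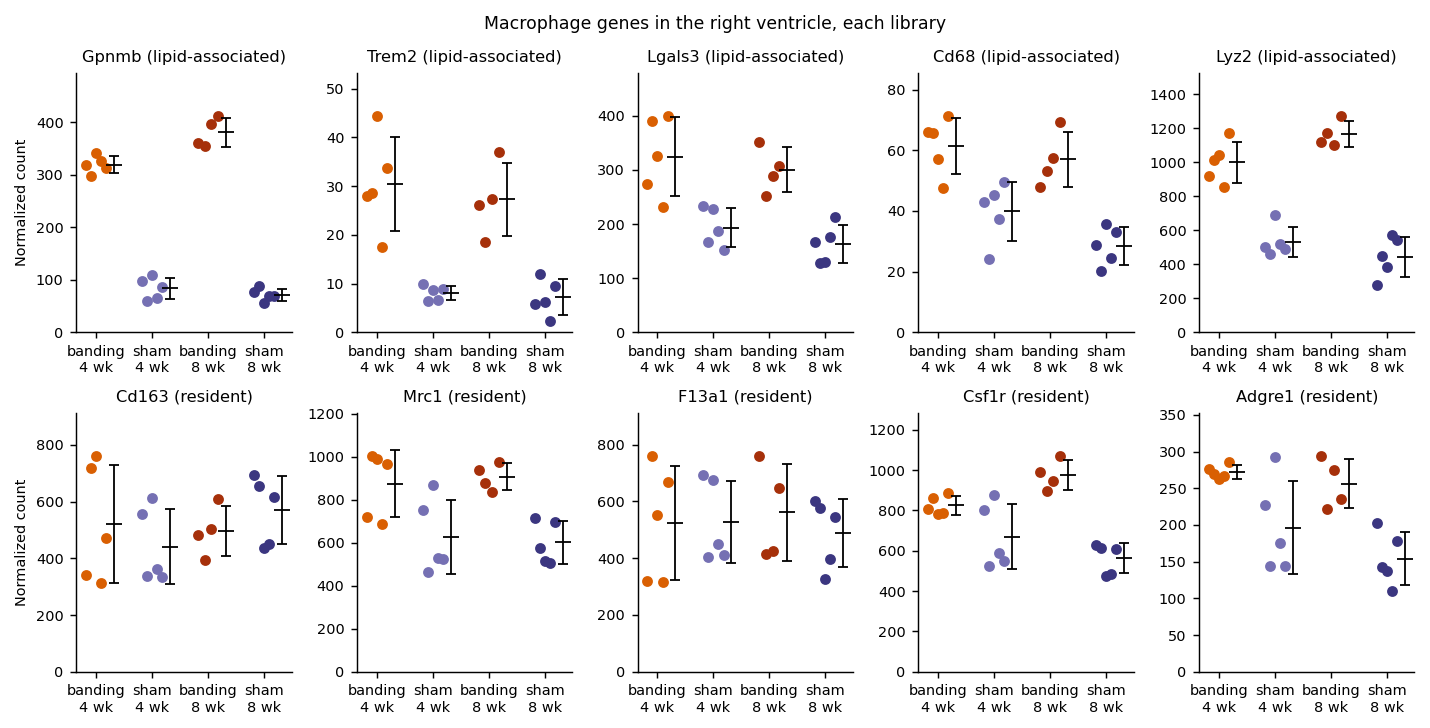
Normalized counts (linear axes from 0) of the 10 macrophage genes in each of 19 right ventricles, with banding left of sham at each time and black bars for the mean ± SD. The banded libraries of Gpnmb, Trem2 and Lyz2 stand wholly above the sham libraries at both times, while those of Cd163 and F13a1 overlap them.

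Lyz2 encodes lysozyme, the bactericidal enzyme of macrophages and other myeloid cells. It had 917, 1011, 1042, 856 and 1170.4 normalized counts at 4 weeks after banding, against 499, 461, 687, 519.7 and 488 after sham. At 8 weeks it had 1121, 1171, 1099.9 and 1269.7 after banding, against 279, 451, 386, 569.9 and 540.4 after sham. Again no library crossed. Lyz2 rose by 0.92 ± 0.14 on the log2 scale (limma adjusted p = 8.03e-05) at 4 weeks and 1.43 ± 0.15 (adjusted p = 2.43e-07) at 8 weeks, and the difference between the times was 0.51 (95% interval 0.07 to 0.95), which was not called (adjusted p = 0.355).

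Lgals3 encodes galectin-3, a sugar-binding protein secreted by activated macrophages and also studied as a blood marker of heart failure. It had 273, 391, 327, 231 and 399 normalized counts at 4 weeks after banding, against 233, 166, 227, 187 and 152 after sham; 1 sham library lay just above the lowest banded one. The 8-week values were 352, 252, 289 and 308 after banding, against 166, 128, 130.1, 175 and 213 after sham, with no overlap. Lgals3 rose by 0.73 ± 0.16 on the log2 scale (limma adjusted p = 0.00222) at 4 weeks and 0.90 ± 0.17 (adjusted p = 0.0003) at 8 weeks. Of 7 tested genes of the galectin list, Lgals3 and Lgals3bp (a galectin-3 ligand) were called higher at 4 weeks, and at 8 weeks 4 were higher and 1 lower. Lgals1, which is broadly made by stromal cells, was at 1426 ± 94.5 with banding and 1432 ± 146 with sham at 4 weeks (SD, n = 5 each), a log2 difference of -0.00 ± 0.08 (adjusted p = 0.993).

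Cd68 encodes a lysosomal membrane protein used to stain macrophages of all kinds. It had 65.9, 65.8, 57.2, 47.6 and 71.2 normalized counts at 4 weeks after banding, against 42.9, 24.3, 45.3, 37.3 and 49.5 after sham, where the ranges just met. At 8 weeks it had 48.1, 53.03, 57.5 and 69.3 after banding, against 28.7, 20.3, 35.7, 24.5 and 33.1 after sham, with no overlap. The banded mean was 57.0 at 8 weeks and 61.5 at 4 weeks, and the sham mean was 28.4 at 8 weeks and 39.9 at 4 weeks. Cd68 rose by 0.64 ± 0.19 on the log2 scale (limma adjusted p = 0.0221) at 4 weeks and 0.99 ± 0.20 (adjusted p = 0.000664) at 8 weeks. The 4-week call rested on single libraries: the adjusted p was 0.0501 without banding replicate 1, 0.0597 without banding replicate 5 and 0.0803 without sham replicate 2. Between sham hearts alone, Cd68 differed by -0.46 at 8 minus 4 weeks (adjusted p = 0.162), and without that sham replicate 2 by -0.62 (adjusted p = 0.0374).

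Csf1r encodes the receptor for CSF1 and IL-34 that nearly all tissue macrophages depend on. It had 807, 861, 781, 786 and 889 normalized counts at 4 weeks after banding, against 804, 526, 878, 589 and 549 after sham. The 8-week values were 991, 894, 945 and 1071 after banding, against 629, 612, 475, 486 and 609.7 after sham. The 4-week ranges overlapped, with sham replicates 1 and 3 as high as the banded libraries (both held much of the atrial transcript Myl7, at 7268 and 2783 normalized counts), while at 8 weeks every banded library was above every sham one. The log2 difference in Csf1r was 0.33 ± 0.12 at 4 weeks (limma adjusted p = 0.0558) and 0.80 ± 0.13 at 8 weeks (adjusted p = 3.79e-05), and their difference of 0.47 (95% interval 0.11 to 0.83) was not called (adjusted p = 0.289). At 4 weeks the adjusted p was 0.0235 without sham replicate 1 and 0.0064 without sham replicate 3. Csf1r was also, with Gpnmb, 1 of 2 members whose 8-week banding libraries all exceeded the 4-week banding libraries, by 0.24 on the log2 scale (adjusted p = 0.409); 2.23% of all IDs tested were higher in this way.

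Adgre1, which encodes F4/80, the classic surface marker of rodent macrophages, had 276, 269, 263, 266 and 287 normalized counts at 4 weeks after banding, against 227, 144, 292, 175 and 144 after sham. At 8 weeks it had 294, 222, 275 and 235 after banding, against 203, 143, 137, 109.9 and 178 after sham. The 5 banded libraries at 4 weeks spanned a narrow range inside that of sham, with a coefficient of variation of 3.45% against 32.3%, and at 8 weeks the groups did not overlap. Adgre1 rose by 0.52 ± 0.17 on the log2 scale (limma adjusted p = 0.0308) at 4 weeks and 0.75 ± 0.18 (adjusted p = 0.00223) at 8 weeks. The 4-week call was lost in 6 of the fits that left out 1 library (banding replicate 1, 2 or 5, or sham replicate 2, 4 or 5), with adjusted p between 0.0517 and 0.0993, and with edgeR (0.0590).

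Mrc1, the mannose receptor, had 719.7, 1006, 993, 689.8 and 966 normalized counts at 4 weeks after banding, against 752, 463, 868, 530.2 and 524 after sham. The 8-week values were 937, 879, 836 and 979 after banding, against 715, 577, 516, 505 and 698 after sham. As for Adgre1, the ranges overlapped at 4 weeks and were apart at 8 weeks. Mrc1 rose by 0.50 ± 0.15 on the log2 scale (limma adjusted p = 0.0211) at 4 weeks and 0.60 ± 0.16 (adjusted p = 0.00535) at 8 weeks. The 4-week call was lost without banding replicate 2, 3 or 5 or sham replicate 2, 4 or 5, with adjusted p between 0.0537 and 0.0745. In the GRCr8 annotation Mrc1 and Adgre1 each overlap 2 other genes and F13a1 overlaps 1, and whether reads were counted by strand is not given in the sources used here, so their counts may hold reads of those neighbours.

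Cd163 encodes the scavenger receptor that takes up haemoglobin bound to haptoglobin, and it is among the most used markers of resident cardiac macrophages. It had 342, 718, 762, 312 and 473 normalized counts at 4 weeks after banding, against 555, 337, 612, 362 and 336 after sham. At 8 weeks it had 483, 394, 502 and 608 after banding, against 694, 656, 437, 449 and 616 after sham. The groups overlapped at both times, and the 4-week banding libraries were the most scattered of its 4 groups, with a mean of 521 ± 209 (SD, n = 5). The log2 difference was 0.20 ± 0.23 (limma adjusted p = 0.61) at 4 weeks and -0.19 ± 0.24 (adjusted p = 0.583) at 8 weeks.

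F13a1 encodes the A chain of coagulation factor XIII, which cardiac resident macrophages make and which platelets also hold. It had 320.3, 761, 552, 317 and 669 normalized counts at 4 weeks after banding, against 692, 405, 675, 451 and 411 after sham. The 8-week values were 759, 416, 424 and 649 after banding, against 600.1, 575, 325, 398 and 544 after sham. As with Cd163, replicates 1 and 4 were the lowest of the 4-week banding group. The log2 difference was -0.06 ± 0.24 (limma adjusted p = 0.907) at 4 weeks and 0.19 ± 0.26 (adjusted p = 0.61) at 8 weeks. None of the 4 platelet genes tested, a list that includes F13a1, was called at either time.

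**Figure D2:**
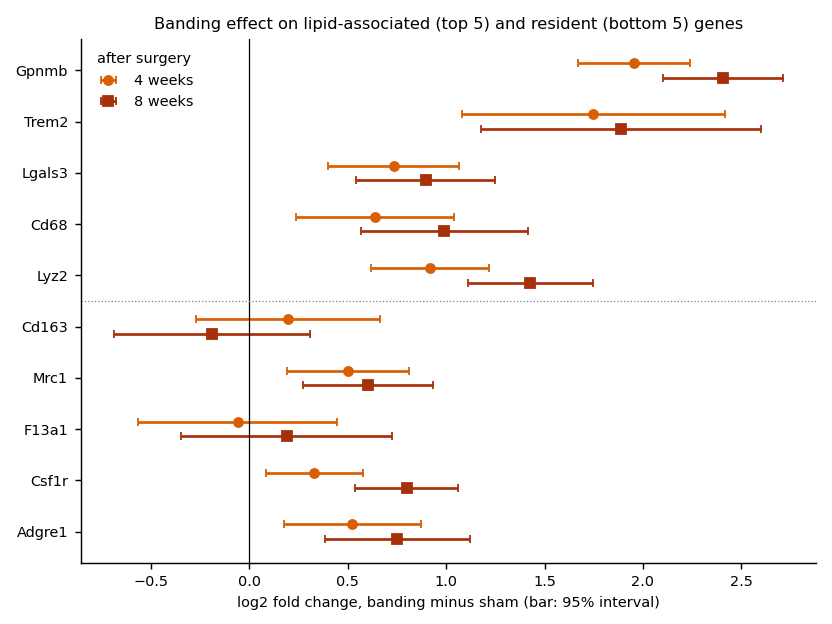
Log2 difference between banding and sham (x axis) for each macrophage gene at 4 and 8 weeks, with the 95% interval from limma. Gpnmb lies farthest to the right at both times (1.95 and 2.41), and the intervals of Cd163 and F13a1 span 0.

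Counted without the model, 3 of 10 members had every banded library above every sham library at 4 weeks (Gpnmb, Trem2 and Lyz2), where 6.51% of all IDs tested did. At 8 weeks 8 of 10 did, all but Cd163 and F13a1, against 12.5% of all IDs tested. Trem2, counted at both times, passed the filter through its banded libraries, since it reached 10 in 1 of 10 sham libraries. The median log2 change of the 5 lipid-associated genes was 0.92 at 4 weeks and 1.43 at 8 weeks, and that of the 5 resident genes was 0.33 and 0.60. No member was called between 8 and 4 weeks, neither in banded hearts (1.14% of all IDs called) nor in sham hearts (6.53% called), and none in the difference of the banding effect between the times (0.0275% called, or 3 IDs). At an unadjusted p under 0.05, 0 members passed between the times in banded hearts, 1 in sham hearts (Cd68) and 3 in the difference of the effect (Gpnmb, Lyz2 and Csf1r); edgeR and DESeq2 called 0 in each of these 3 comparisons. On simulated counts with the sizes of the 4-week comparison of banding with sham (10834 genes), the fit called 44% of genes changed by 0.5 on the log2 scale. It called 89.8% of those changed by 1. Far fewer genes were changed in the simulation than were called in the real comparison. It did not cover the comparisons between the times or the difference of the effect. In that difference the SE of Gpnmb was 0.20, against 0.14 for banding minus sham at 4 weeks.

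In whole tissue, more macrophages in the sample, more RNA of a gene per macrophage and RNA of that gene from other cells cannot be told apart. The ratio of a gene to Csf1r in the same library sets it against a gene that macrophages share. For Gpnmb this log2 ratio was -1.37 ± 0.15 after banding and -2.99 ± 0.20 after sham at 4 weeks (SD, n = 5 each), and -1.35 ± 0.09 after banding (n = 4) and -2.96 ± 0.15 after sham (n = 5) at 8 weeks. The difference was 1.62 and 1.61, without overlap. Trem2 over Csf1r was higher in the banded libraries by 1.42 at 4 weeks and 1.09 at 8 weeks, again without overlap. Lyz2 over Csf1r was higher by 0.59 at 4 weeks without overlap and by 0.63 at 8 weeks with overlap, and for Lgals3 and Cd68 the banded and sham ratios overlapped at both times, with differences between 0.10 and 0.40.

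The ratio of Cd163 to Csf1r went the other way at 8 weeks. This log2 ratio lay between -1.18 and -0.82 in the banded libraries and between -0.12 and 0.14 in the sham libraries, without overlap. The difference in the ratio was -0.99, of which most was the rise of Csf1r by 0.80. Cd163 itself differed by -0.19 and was not called. At 4 weeks the difference was -0.13, with a ratio of -0.75 ± 0.58 after banding and -0.62 ± 0.09 after sham (SD, n = 5 each); banding replicates 2 and 3, at -0.26 and -0.03, stood apart from the other 3, which lay between -1.33 and -0.91. In sham hearts the same ratio was 0.00 ± 0.12 at 8 weeks and -0.62 ± 0.09 at 4 weeks (SD, n = 5 each), without overlap between the sham groups. Set against Adgre1 in place of Csf1r, the ratio of Cd163 was lower after banding at 8 weeks by 0.94 (without overlap). Adgre1 itself rose by 0.75 at that time. Gpnmb over Adgre1 was higher by 1.43 at 4 weeks and 1.66 at 8 weeks (without overlap at either time). Over Adgre1, Trem2 was higher by 1.22 at 4 weeks without overlap and by 1.14 at 8 weeks with overlap, and Lyz2 by 0.39 and 0.68 with overlap at both times. The other resident genes over Csf1r overlapped between banding and sham at both times.

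**Figure D3:**
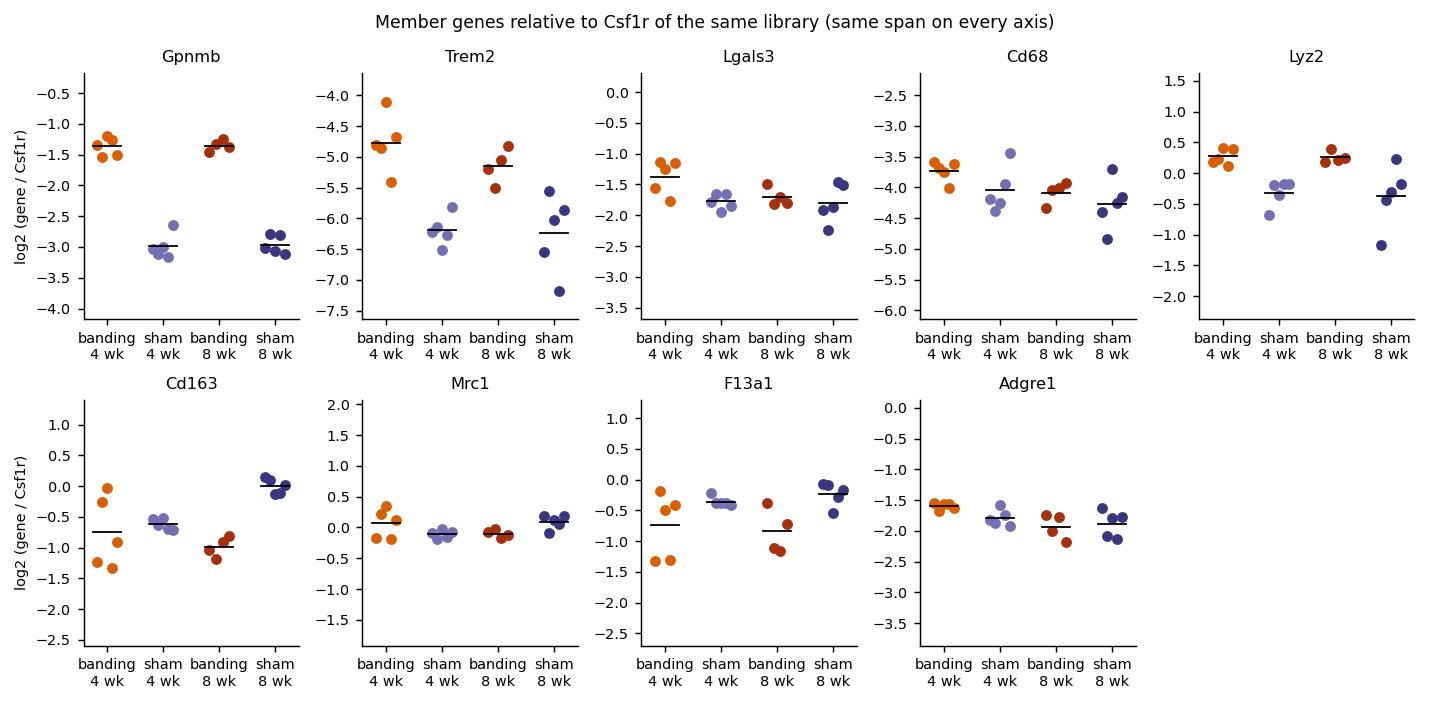
Log2 ratio of each gene to Csf1r in the same library (y axis), with banding left of sham at 4 and 8 weeks and a line at each group's mean. The ratios of Gpnmb and Trem2 are higher in every banded library at both times. That of Cd163 is lower in every banded library at 8 weeks, when Csf1r itself rose and Cd163 was not called.

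Taking the median over the 5 lipid-associated genes minus the median over the 5 resident genes in each library, on the log2 scale, gave -0.89 ± 0.47 after banding and -2.64 ± 0.24 after sham at 4 weeks (SD, n = 5 each). The 8-week values were -0.92 ± 0.19 after banding (n = 4) and -2.90 ± 0.19 after sham (n = 5). The difference between banding and sham was 1.75 at 4 weeks and 1.97 at 8 weeks. With the mean in place of the median it was 0.90 at 4 weeks and 1.09 at 8 weeks. A median over 5 genes is the level of 1 gene in each library, and the mean uses all 5. Among the lipid-associated genes that 1 gene was Gpnmb in every sham library, and Gpnmb or Lgals3 in each banded one. Among the resident genes it was Cd163 or F13a1, which were called at neither time, in every banded library. In the sham libraries it was F13a1 at 4 weeks, and Cd163, Mrc1 or Csf1r at 8 weeks. The median difference thus sets few genes against each other and not 1 whole list against the other. By median and by mean, the lipid-associated list was higher after banding relative to the resident list. Taken singly, Lgals3 and Cd68 overlapped between banding and sham at both times, over Csf1r and over Adgre1.

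Within groups the resident genes moved together. After each library's deviation from its own group mean was taken, the 10 pairs of resident genes correlated at a median r of 0.81 (0.54 to 0.87) over the 19 libraries, the 10 pairs of lipid-associated genes at 0.22 (0.10 to 0.47), and the 25 mixed pairs at 0.46 (-0.03 to 0.78). These are given as a description, with no p: all pairs share the same libraries and their depth. Cd163 and Mrc1 made the closest pair, at 0.87. Trem2 rests on 3 to 48 reads per library and Cd68 on 15 to 86, against at least 106 for every resident gene. The part of low counts in the lower r of the lipid-associated pairs was not tested.

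Of the resident genes, 2 of 5 (Mrc1 and Cd163) correlated within groups with the atrial myosin light chain Myl7, a transcript of atrial muscle that is scarce in ventricle. Myl7 was above 1000 normalized counts in 7 libraries (at 4 weeks 1 of 5 with banding and 2 of 5 with sham, and at 8 weeks 1 of 4 with banding and 3 of 5 with sham). It ranged between 64.2 and 1160.1 with banding and 52.5 and 7268 with sham at 4 weeks, and between 24.7 and 2315 with banding and 41.1 and 17580.0 with sham at 8 weeks. On deviations from group means over 19 libraries, Mrc1 correlated with Myl7 at Pearson's r = 0.74 (permutation p = 0.00084 within groups, 0.0084 adjusted over the 10 relations computed) and Spearman's rho = 0.74 (p = 0.00054, adjusted 0.0054). Cd163 did so at r = 0.61 (permutation p = 0.00502, adjusted 0.0251) and rho = 0.60 (p = 0.00536, adjusted 0.0268). Without the 2 libraries whose Myl7 deviation lay farthest from the median deviation, r was 0.83 for Mrc1 and 0.78 for Cd163. These were replicate 3 of banding and replicate 1 of sham, both at 8 weeks. That replicate 3 of banding went against the relation, with Myl7 at 2315 and the lowest Cd163 of its group, 394. The higher r was thus computed without it. Csf1r had r = 0.60 (adjusted permutation p = 0.0646), F13a1 0.52 (0.0646) and Adgre1 0.54 (0.102), and the lipid-associated genes had r between -0.11 and 0.46, with adjusted permutation p between 0.173 and 0.751.

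**Figure D4:**
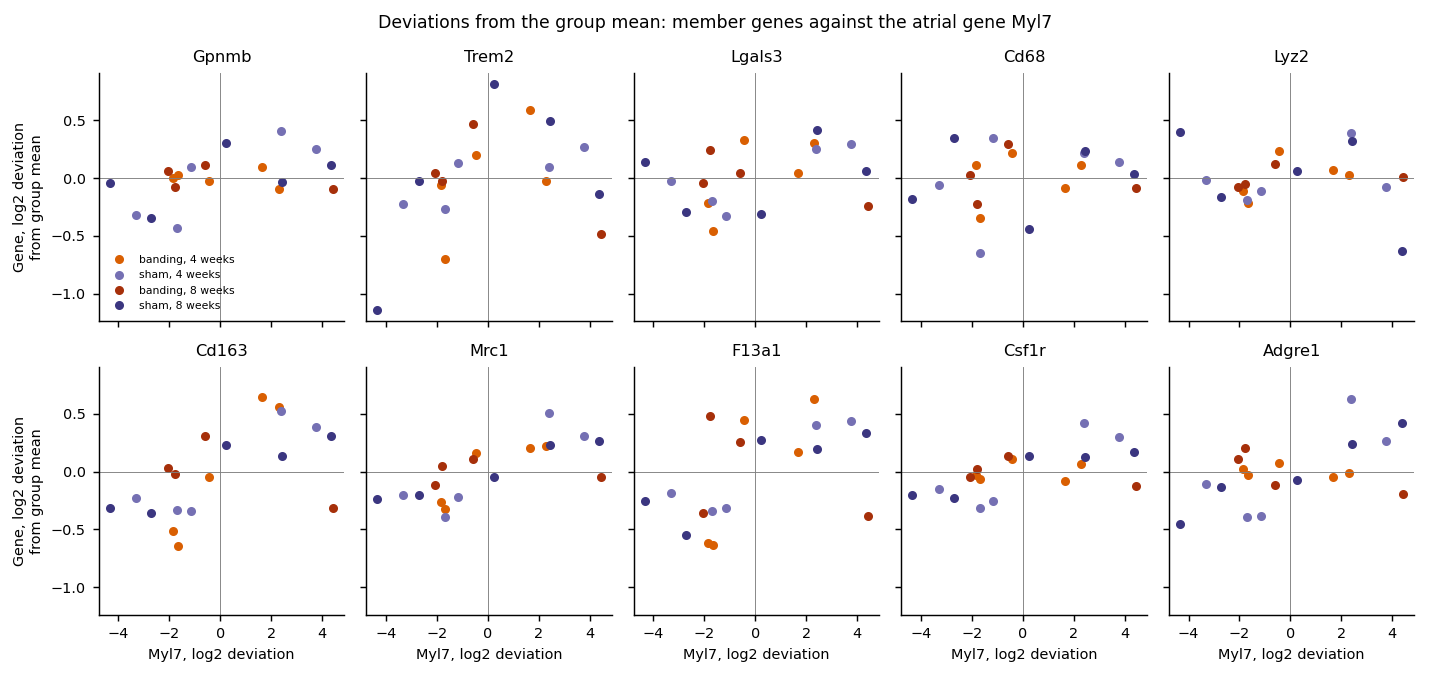
Deviation of each library from its group mean in log2 Myl7 (x axis) against the same deviation of a macrophage gene (y axis) over 19 libraries, banding and sham marked apart. Mrc1 and Cd163 climb with Myl7 (r = 0.74 and 0.61).

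Without the 7 libraries rich in Myl7, a choice listed with earlier results in view, 4 and 3 banded and 3 and 2 sham libraries were left at 4 and 8 weeks. The lipid-associated genes were all still called at both times, with Gpnmb at 2.20 and 2.63. Csf1r was then called at 4 weeks as well, at 0.55 (limma adjusted p = 0.000127), and Adgre1 and Mrc1 stood at 0.82 and 0.72. Cd163 was at 0.36 (adjusted p = 0.277) at 4 weeks and 0.25 (adjusted p = 0.514) at 8 weeks, so that its sign at 8 weeks turned, and F13a1 was at 0.06 (adjusted p = 0.9) and 0.72 (adjusted p = 0.0695). Among the libraries poor in Myl7, the log2 ratio of Cd163 to Csf1r at 8 weeks was -1.04, -0.91 and -0.82 in the 3 banded libraries, against -0.12 and -0.11 in the 2 sham libraries. The part of atrial tissue in the spread of the resident genes was not tested further.

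The partners of TREM2 in the membrane and below it gave a mixed picture. Of 9 tested genes of TREM2 signalling, 2 were higher and 0 lower at 4 weeks, and 5 were higher and 1 lower at 8 weeks, with a median change of 0.20 and 0.36. Tyrobp, the adaptor that TREM2 needs to signal, was at 116 ± 24.4 with banding and 84.4 ± 14.7 with sham at 4 weeks (SD, n = 5 each; limma adjusted p = 0.0622), and rose by 0.57 ± 0.17 at 8 weeks (adjusted p = 0.0137). Syk, the kinase that binds TYROBP, differed by 0.23 ± 0.15 at 4 weeks (adjusted p = 0.308) and rose by 0.86 ± 0.16 at 8 weeks (adjusted p = 0.000206). Adam17, a protease that sheds TREM2 from the cell, rose by 0.21 and 0.36. Card9, an adaptor downstream of SYK, was at 29.2 ± 6.69 with banding and 31.3 ± 7.90 with sham at 4 weeks (SD, n = 5 each; adjusted p = 0.805). At 8 weeks it was at 31.8 ± 7.27 with banding (n = 4) and 60.4 ± 5.88 with sham (n = 5), lower with banding by 0.93 ± 0.21 on the log2 scale (SE; adjusted p = 0.00137). Between 8 and 4 weeks Card9 differed by 0.12 in banded hearts (adjusted p = 0.854) and rose by 0.95 in sham hearts (adjusted p = 0.00535).

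Among 24 other genes of lipid-associated macrophages that were tested, 8 were higher and 1 lower at 4 weeks, and 11 higher and 3 lower at 8 weeks (median 0.16 and 0.38). The lysosomal tetraspanin Cd63 rose by 0.64 at both times, with 1986 ± 185 normalized counts after banding and 1272 ± 80.2 after sham at 4 weeks (SD, n = 5 each). Among lysosomal proteases, the cathepsin Ctsk rose by 0.40 and 1.00, Ctsl by 0.39 and 0.55, and the legumain gene Lgmn by 0.37 and 0.43 at 4 and 8 weeks, while the cathepsin Ctsd differed by 0.02 (limma adjusted p = 0.881) and -0.09 (adjusted p = 0.314). The genes of the list called lower handle lipids: Lpl, which encodes lipoprotein lipase, fell by 0.33 and 0.57, and at 8 weeks Lipa, the lysosomal acid lipase gene, fell by 0.34 and Cd36, a fatty acid receptor gene, by 0.32. Lpl and Cd36 are also strongly made in heart muscle and its vessels. Spp1, which encodes osteopontin, rose by 2.45 ± 0.74 (limma adjusted p = 0.0227) and 3.64 ± 0.79 (adjusted p = 0.00102); its 4-week sham mean of 160.0 had an SD of 243, wider than the mean itself. Several of these genes are also made by fibroblasts, endothelium or muscle: of 31 lysosomal genes and factors tested, 9 were higher and 3 lower at 4 weeks, and 12 higher and 4 lower at 8 weeks. Ctsc fell by 0.57 and 0.91, and Mitf, a transcription factor of lysosomal genes and of Gpnmb, fell by 0.32 (adjusted p = 0.00627) and 0.53 (adjusted p = 4.89e-05) in the whole tissue.

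Of 18 other resident-macrophage genes tested, 5 rose at 4 weeks and 8 at 8 weeks, and none fell (median 0.15 and 0.44). Cx3cr1, the fractalkine receptor of monocytes and some resident cells, was at 30.1 ± 11.6 normalized counts with banding and 9.99 ± 6.07 with sham at 4 weeks (SD, n = 5 each). By 8 weeks it was at 47.5 ± 9.38 with banding (n = 4) and 5.24 ± 1.98 with sham (n = 5). The log2 change in Cx3cr1 of 1.58 (limma adjusted p = 0.00158) and 3.00 (adjusted p = 8.93e-07) passed the test at both times. Its sham means lay under 10 normalized counts, the value used in the filter, so the size of these changes rests on few sham reads. Siglec1, a sialic acid receptor, rose by 0.62 and 1.18, and Hmox1, which breaks down haem taken up through CD163, by 1.23 and 1.25. Lyve1, shared by resident macrophages and lymphatic endothelium, did not pass the test, at 0.13 ± 0.23 (adjusted p = 0.753) and 0.09 ± 0.25 (adjusted p = 0.812). Also called at neither time were Folr2 (0.08 and 0.31), Mertk (0.15 and 0.11), Maf (-0.16 and -0.15) and Ccl24 (0.05 and -0.51). The complement genes C1qa (0.50 and 0.52) and C1qc (0.51 and 0.54) were called higher at both times. C1qb (0.58), Slc40a1 (1.08) and Tmem26 (1.51) were called higher at 8 weeks only.

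Of 17 monocyte and recruited-macrophage genes, 4 rose at 4 weeks and 11 at 8 weeks, with none lower and medians of 0.66 and 1.02. Itgal and Itgam, integrins of circulating leukocytes, rose by 1.35 and 1.32 at 8 weeks, S100a4 by 1.13 at 4 and 1.48 at 8 weeks, and the IgG receptor Fcgr1a by 0.68 and 1.23. Among 21 leukocyte and pan-macrophage genes, 7 rose and 1 fell at 4 weeks, and 16 rose and 1 fell at 8 weeks (median 0.35 and 0.63). Itgb2, the partner of both integrins, rose by 0.73 and 1.33, and Aif1, which encodes the macrophage protein IBA1, by 0.51 (limma adjusted p = 0.0102) and 0.52 (adjusted p = 0.00841). The gene that fell was Cd74, the chaperone of MHC class II, by 0.44 and 0.68. Ptprc, which encodes CD45, is listed at 0 in all 19 libraries, as are other genes with several transcripts such as Igf1 and Psap, so a 0 in this table may be a failed count.

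**Figure D5:**
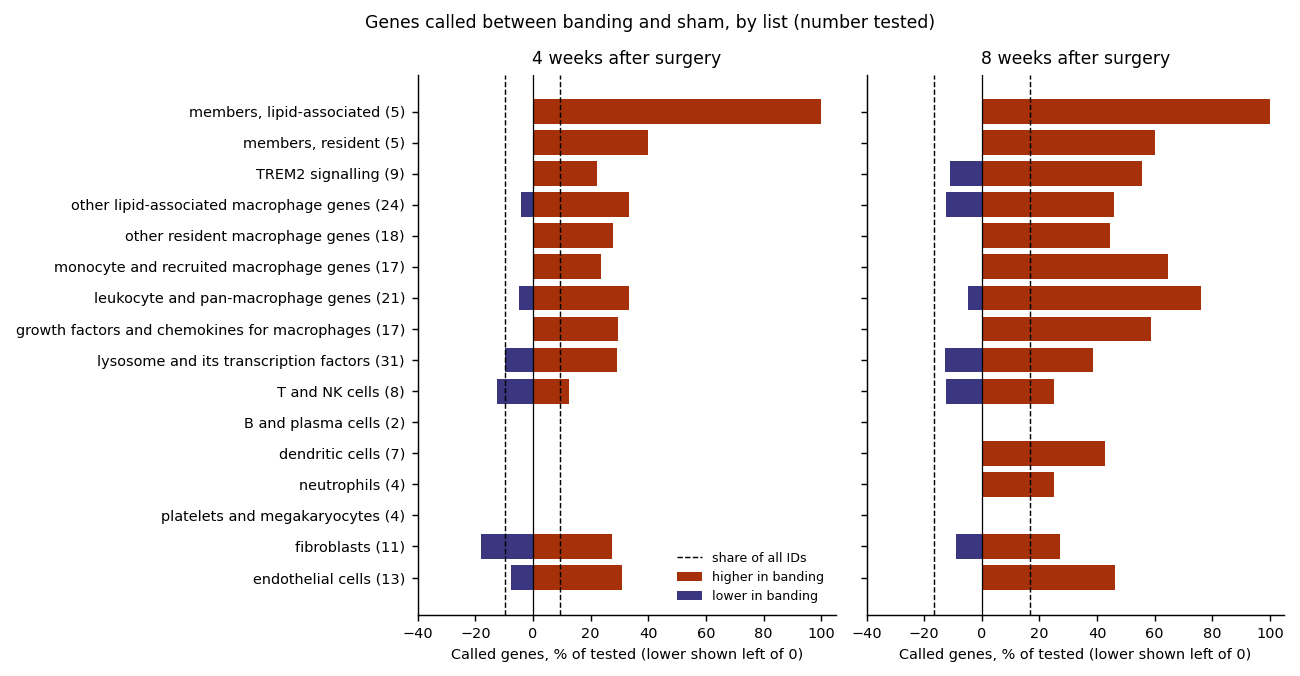
Percent of tested genes called higher (right of 0) and lower (left of 0) after banding in each list of macrophage and other cell-type genes, at 4 and 8 weeks. Dashed lines mark the share of all IDs tested (9.27% higher and 9.82% lower at 4 weeks, 16.7% and 16.6% at 8 weeks). All 5 lipid-associated members were called at both times.

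Ligands that draw or feed macrophages rose in part. Of 17 growth factors and chemokines tested, 5 were higher at 4 weeks and 10 at 8 weeks, none lower, with medians of 0.33 and 0.69. Csf1, a ligand of the CSF1 receptor, was at 232 ± 28.1 with banding and 165 ± 46.6 with sham at 4 weeks (SD, n = 5 each), and rose by 0.52 (limma adjusted p = 0.0253) and 0.81 (adjusted p = 0.000825). Il34, the other ligand, differed by 0.21 (adjusted p = 0.408) and 0.43 (adjusted p = 0.0577). Ccl2, the chemokine that calls monocytes from the blood, differed by 0.53 at 4 weeks (adjusted p = 0.0906) and rose by 1.36 at 8 weeks (adjusted p = 7.68e-05). Cx3cl1, the ligand of CX3CR1, rose by 0.69 at 8 weeks, and Tgfb1 by 0.93 and 1.15.

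Other blood and tissue cells were followed for comparison. Of 8 T and NK cell genes tested 1 rose and 1 fell at 4 weeks, and 2 rose and 1 fell at 8 weeks, with the list's summed level at 370.2 to 510.3 after banding and 285 to 471 after sham at 4 weeks and 465 to 603 after banding and 320.3 to 366 after sham at 8 weeks. Those that rose were Thy1, which fibroblasts also carry, and at 8 weeks Cd4, which rat macrophages also carry, while Klrd1, an NK cell receptor, fell by 1.31 and 1.71. None of 7 dendritic cell genes rose at 4 weeks and 3 did at 8 weeks; 0 of 4 and 1 of 4 neutrophil genes rose, and none of 2 B cell genes was called at either time. The T cell receptor complex genes Cd3g and Cd247 were at 0 in 11 and 16 of 19 libraries, and the neutrophil granule genes Mpo, Elane and Ltf were at 0 in 18 of 19 libraries. In the fibroblast list 3 of 11 genes rose and 2 fell at 4 weeks and 3 rose and 1 fell at 8 weeks, and in the endothelial list 4 of 13 rose and 1 fell at 4 weeks and 6 rose at 8 weeks. The summed level of the endothelial list lay between 11928 and 16229 after banding and 10667 and 12838 after sham at 4 weeks, and between 11729 and 17289 after banding and 9795 and 11068 after sham at 8 weeks, where the groups did not overlap. That of the dendritic cell list also did not overlap at 8 weeks (723 to 891 after banding and 525 to 659 after sham), while that of the fibroblast list did (36533 to 42187 after banding and 26389 to 42816 after sham). The 9 genes of the cardiomyocyte list gave 0 higher and 2 lower at 4 weeks and 1 higher and 3 lower at 8 weeks. Their summed level lay between 421802 and 492912 after banding and 453488 and 604763 after sham at 4 weeks, and between 378221 and 428844 after banding and 542466 and 629200 after sham at 8 weeks, lower after banding without overlap. The part of these cells in the macrophage-gene changes was not tested.

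Genes with the profile most like a member's over the 19 libraries were picked by Pearson's r of log2 values, as a measure of likeness among 8306 genes with a mean of at least 50. Nearest to Gpnmb were Ncam1 (0.98), Fuca1 (0.97), Ankrd23 (0.97), Col8a1 (0.97) and Tmem100 (0.97), each of which was higher after banding at both times, by 0.96 for Fuca1 and 4.49 for Ankrd23 at 4 weeks. Nearest to Cd163 were C6 (0.82), KIFAP3 (0.82), Lyve1 (0.80), Timp3 (0.79) and Nucb2 (0.79), none of which was called at either time. The banding effect is part of the first profile, so that any gene with a large and even response lies near Gpnmb. Fuca1 encodes a lysosomal fucosidase, Ncam1 an adhesion molecule, Ankrd23 a muscle ankyrin repeat protein and Col8a1 a collagen chain.

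The authors' deposited tables of their own comparisons called the same members: 7 of 10 at 4 weeks and 8 of 10 at 8 weeks, all of them shared with limma, and 0 between the times in banded or in sham hearts. The libraries held between 2702672 and 8541163 reads, with a median of 5785292. Least deep were the 8-week replicates numbered 1, with 2702672 reads for banding and 2812551 for sham. The 9 cardiomyocyte genes, most of which atrial and ventricular muscle share, summed to at least 378221 normalized counts in every library, so heart muscle was present in all 19; they do not tell ventricle from atrium.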

How the data were processed

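RNA was extracted with Trizol from snap-frozen right ventricles and 800 ng went into rRNA-depleted libraries, per the labels' protocols. STAR, DESeq2 and the rat build rn6 are named in the submitters' processing notes, without versions; which counter, strand setting and annotation were used is not given in the sources used here. A single table of normalized counts deposited by the authors was used for 19 of the 20 labelled samples, a depth-scaled signal in which reads are divided by a size factor, with further deposited tables of their own comparisons with log2 fold changes, p-values and a score per gene (the deposited test statistic). The sign of a deposited log2 fold change was read from the group means. In every library 100% of values were whole multiples of 1 read within 0.001, which gave back read counts and depth (2702672 to 8541163 reads per library). At 8 weeks 2 libraries had 2702672 and 2812551, and a gene near 10 normalized counts, such as Trem2 in sham, rests on few reads.

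Values were tested as log2(normalized count + 1), which understates the change of low genes, with limma 3.58.1 in R 4.3.3 (1 fit over the 4 groups, moderated with a mean-variance trend) on 10926 IDs with at least 10 in at least 4 libraries, Benjamini-Hochberg adjusted over all of them; a call is an adjusted p under 0.05. Alternatives were edgeR 4.0.16 (quasi-likelihood) and DESeq2 1.42.0 on the recovered reads, other pseudocounts, filters and scaling, 2 groups at a time, a replicate block, each library left out, and libraries poor in Myl7. On the recovered reads edgeR called 986 IDs higher and 1190 lower at 4 weeks, and 1811 higher and 1758 lower at 8 weeks. The fit was tested on simulated data. Symbols came from a RefSeq table (17351 IDs) or the deposited sheet (930). The members, the gene lists and the tests were chosen with earlier results of these data known. Beside the members, the text names up to 4 genes of each list with the smallest p in either comparison of banding with sham, a few genes that identify a cell type, and the 5 genes most like Gpnmb and most like Cd163. Promoter sequences are RefSeq's, assembly GRCr8. Igf1, Psap, Cd3g, Cd247, Mpo, Elane and Ltf were named after their values were seen, to say where the table lists 0. In the same way Ctsd, Lpl, Lipa, Cd36, Folr2, Mertk, Maf and Ccl24 were named as genes of their lists that were not called higher. C1qa, C1qb, C1qc, Slc40a1 and Tmem26 were named beside them as the other resident-macrophage genes that were called higher.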

Additional observations from a re-analysis of the deposited data

Results flagged for a closer look

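Lyz2 in sham replicate 3 at 4 weeks, at 687 normalized counts, was the highest of its group of 5 and stood apart from the other 4: its gap to the next library was 0.739 of the group's whole range. It was 1 of 40 groups of a member's values examined for such a gap, where chance gives about 1 in 20. All 5 banded libraries of that time remained above it.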

How the results depend on the processing

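At 4 weeks 7 members were called, and 4 to 8 when 1 library was left out (4 without banding replicate 5 and 4 without sham replicate 2); at 8 weeks 8 were called in each such fit. Between 8 and 4 weeks in sham hearts the count was 0 to 1. With the replicate number as a block, 7 and 8 members were called at 4 and 8 weeks and 0 in the other comparisons, so that no call changed. Same-numbered banding and sham libraries correlated between -0.11 and 0.12 at 4 weeks and between -0.15 and 0.08 at 8 weeks. Between the 2 sham groups they correlated between -0.28 and 0.32, and between the 2 banding groups between -0.05 and 0.13. No steady pairing by number was seen, but such correlations cannot settle whether the numbers pair the samples. Over all IDs DESeq2 called 133 higher and 138 lower between the times in banded hearts, where limma called 53 and 72, and 53 and 36 in the difference of the effect, where limma called 3 and 0.

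The median over lipid-associated minus resident genes differed between banding and sham by 1.75 (1.61 to 1.86 with 1 library left out) at 4 weeks and 1.97 (1.91 to 2.03) at 8 weeks, and with the mean, chosen after seeing the data, by 0.90 and 1.09. Signs turned only for differences that were not called. Without the libraries rich in Myl7 these were F13a1 at 4 weeks (0.0612), Cd163 at 8 weeks (0.25), Trem2 (0.0204) and Lgals3 (0.0654) between the times in banded hearts and Mrc1 (0.0166) in sham hearts. With Myl7 as a covariate, also chosen after seeing the data, F13a1 at 4 weeks was at 0.0367 and Cd163 at 8 weeks at 0.0744. Cd163 between the times in banded hearts was at -0.0532 with edgeR and -0.0664 with DESeq2. With 1 library left out, F13a1 lay between -0.22 and 0.10 at 4 weeks. Between 8 and 4 weeks in banded hearts Trem2 lay between -0.31 and 0.0275, Cd163 between -0.15 and 0.17, Mrc1 between -0.0109 and 0.125, and F13a1 between -0.0167 and 0.302. In sham hearts Trem2 lay between -0.478 and 0.00841, Mrc1 between -0.13 and 0.10, and F13a1 between -0.189 and 0.0313. The difference of the effect lay between -0.14 and 0.34 for Trem2 and between -0.0252 and 0.201 for Mrc1. The cause of these changes was not tested. Trem2 has 3 to 13 reads in each sham library, which limits its precision.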

Other observations

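The spread within groups differed between banding and sham at 4 weeks for several members. The coefficient of variation was 5.06% in banded and 24.9% in sham libraries for Gpnmb, 5.81% and 24.0% for Csf1r, and 3.45% and 32.3% for Adgre1. For Cd163 it was 40.1% with banding and 30.1% with sham, and for F13a1 38.5% and 27.4%. The summed level of the 5 lipid-associated genes lay between 1478 and 1987 normalized counts with banding and between 718 and 1077 with sham at 4 weeks, and between 1850.2 and 2095 with banding and 556 and 866 with sham at 8 weeks. That of the 5 resident genes lay between 2371 and 3615 with banding and 1875 and 3326 with sham at 4 weeks, and between 2805 and 3541 with banding and 1891 and 2840.2 with sham at 8 weeks. The sums of the resident genes overlapped at both times, and those of the lipid-associated genes at neither.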
